A study of Mus musculus with 2 samples.

Results

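Differentially methylated regions that were intermediate in both of 2 mouse adipose progenitor libraries are described here. They are the autosomal regions of the deposited table (mm10, chromosomes 1 to 19) whose deposited methylation level, a fraction from 0 to 1, lay from 0.25 to 0.75 in each library. Members were thus chosen by the 2 measured levels. They were 1111 regions of 27774 autosomal regions (4.0%), and the table held 28141 regions in all. DNA methylation had been measured by bisulfite sequencing, which converts unmethylated cytosines, in 1 library of CD137+ cells and 1 library of PDGFRα+ (CD140+) cells of C57BL/6 mice. CD137, encoded by Tnfrsf9, is a costimulatory surface molecule related to tumour necrosis factor receptors, and PDGFRα is a tyrosine kinase of mesenchymal progenitors that binds platelet-derived growth factors. Both populations were adipose progenitors that had been sorted with magnetic beads from subcutaneous or visceral fat, grown in culture, differentiated with an adipogenic cocktail and given dexamethasone, which acts on the glucocorticoid receptor, at 1 µM. The labels do not give the age or number of animals or say which fat depot each library came from. Each group had 1 library, so no difference has a replicate check, no p-value is given, and population, depot and library cannot be told apart. Read depth is unknown, so a level carries no interval. Intervals on shares and medians of regions are 95% intervals that cover counting error only and treat regions as independent.

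Most CG sites of a mammalian genome are methylated in nearly every cell, whereas active promoters and enhancers carry little methylation. A level between these states can arise from a mixture of methylated and unmethylated cells, from alleles that differ, as at imprinted genes, or from methylated and unmethylated sites side by side in the same molecule. A regional average does not separate these, and their part in the levels below was not tested.

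On the 18 autosomes with promoter windows in the reference tables (250 bases before to 50 bases after a gene start), 16 of 1081 intermediate regions (1.48%) reached into a window, beside 1.62% of the other regions. Sequences of 5 of them are shown. They are the parts of those windows that the regions cover, from RefSeq on GRCm38.p6, the assembly of mm10, 5′ to 3′ on the strand of the named gene, with CG sites in capitals. A single capital C or G at an end belongs to a CG that the end of the region divides. They are shown because they belong to regions with large statistics (Zfp385b, Ltbp4, Lrrc70), an imprinted gene (Nnat) and a Wnt receptor gene (Lrp6), and because they range from CG-rich to CG-poor.
Zfp385b, chr2:77703223-77703415, minus strand: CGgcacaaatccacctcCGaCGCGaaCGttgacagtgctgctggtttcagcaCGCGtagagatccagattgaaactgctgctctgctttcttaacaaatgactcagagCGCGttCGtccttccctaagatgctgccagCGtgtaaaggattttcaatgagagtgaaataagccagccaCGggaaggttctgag
Ltbp4 region at the start of the gene model Gm30543, chr7:27329560-27329668, plus strand: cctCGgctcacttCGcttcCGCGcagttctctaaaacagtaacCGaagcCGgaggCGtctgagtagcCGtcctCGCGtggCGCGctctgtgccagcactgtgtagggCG
Lrrc70, chr13:106836253-106836552, minus strand: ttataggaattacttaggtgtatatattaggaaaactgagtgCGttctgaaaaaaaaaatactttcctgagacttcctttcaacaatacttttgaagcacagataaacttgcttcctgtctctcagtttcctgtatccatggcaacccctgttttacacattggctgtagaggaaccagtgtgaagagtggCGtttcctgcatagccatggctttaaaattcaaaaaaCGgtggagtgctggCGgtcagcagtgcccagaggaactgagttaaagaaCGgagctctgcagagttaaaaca
Nnat, chr2:157560092-157560127, plus strand: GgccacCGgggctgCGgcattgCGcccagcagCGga
Lrp6 region at the start of the gene model Gm52921, chr6:134450888-134450994, plus strand: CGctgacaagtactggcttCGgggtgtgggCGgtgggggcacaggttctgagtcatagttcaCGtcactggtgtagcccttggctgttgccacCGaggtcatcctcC
The Zfp385b stretch of 193 bases held all 12 CG sites of its window. The Ltbp4 stretch of 109 bases held 13 whole CG sites, and the Lrrc70 window of 300 bases, covered from end to end, held 5. The 107 bases at Lrp6 are the whole intermediate region and held 5. The median promoter window held 7 CG sites over all 32851 windows and 8 over the 17 windows that an intermediate region touched. Among those 17 the Lrrc70 window is entered under both of its gene names, Lrrc70 and Ipo11-lrrc70. Over the 442 windows that another region touched, the median was 6.

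Most intermediate regions were less methylated in the PDGFRα+ library. The level was lower there in 881 regions (79.3%, Wilson interval 76.8 to 81.6%) and higher in 230 (20.7%), beside 77.7% lower over all autosomal regions. The lower regions had medians of 0.287 (PDGFRα+) and 0.723 (CD137+). The higher regions had 0.717 and 0.291. The rule used both levels, so direction and size are descriptions and carry no test. The share of lower regions was between those of the neighbouring classes: 69.6% of 15180 regions with 1 level intermediate and the other above 0.75 were lower, and 91.4% of 5558 regions with 1 level intermediate and the other below 0.25.

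Among the listed regions, intermediate in both libraries rarely meant similar in both. The table lists only regions called different, so similar levels were scarce before the rule was applied. Of the 26663 other autosomal regions, 117 differed by less than 0.29. The median absolute difference was 0.422 (order-statistic interval 0.419 to 0.427, quartiles 0.388 and 0.45), where the rule allows at most 0.5. Of the 1111 regions, 930 (83.7%) had 1 level at or below 0.35 and the other at or above 0.65. Both levels lay from 0.4 to 0.6 in 9 regions (0.810%). The regions therefore filled 2 corners of the allowed square, as the plot of levels shows.

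**Figure D1:**
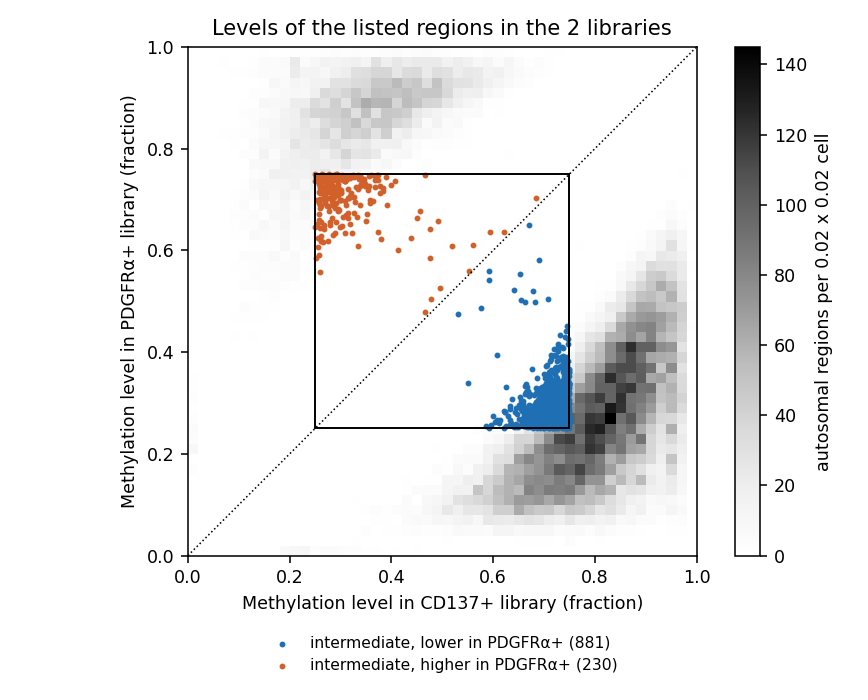
Methylation level (fraction) in the CD137+ library on the x axis and in the PDGFRα+ library on the y axis, with each intermediate region as a point (881 lower in PDGFRα+ in blue, 230 higher in orange) and all autosomal regions as grey counts per cell. The points gather in the 2 corners of the boxed 0.25 to 0.75 square that are farthest from the dotted line of equal levels.

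The limits divide a continuous range of levels. In PDGFRα+ cells the regions nearest to the lower limit had levels of 0.2502 inside it and 0.2497 outside it, and at the upper limit 0.75 and 0.7503. In CD137+ cells the nearest levels were 0.25 and 0.2497 at the lower limit, and 0.7499 and 0.7501 at the upper limit. The Hoxd9 region (0.7498 in PDGFRα+) and the Ntf5 region (0.25 in CD137+) are members by such a margin.

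Levels are given first for PDGFRα+ and then for CD137+ cells. Among the regions lower in PDGFRα+ cells, the largest absolute area statistics, a score deposited per region whose definition is not given in the sources used here, belonged to vascular, ion transport and matrix genes as well as genes of other kinds. Rasip1, which encodes a Ras-interacting protein needed for blood vessel tube formation, held the region with the most cytosines of all members at a named protein-coding gene (chr7:45632532-45632884, 61 cytosines), where the PDGFRα+ level was 0.375 and the CD137+ level 0.744. Mcu, the pore of the mitochondrial calcium uniporter, had 0.305 and 0.747 over 55 cytosines (chr10:59503730-59504503). Kcnh6, a voltage-gated potassium channel gene, had 0.306 and 0.704 over 56 cytosines (chr11:106032954-106033550). All 3 regions lie inside the gene they are named by. The zinc finger gene Zfp385b, with a promoter stretch printed above, had 0.298 and 0.704 (chr2:77702943-77703415). That stretch belongs to a start site inside the gene span (chr2:77410622-77817706), away from both ends. Flt4, the vascular endothelial growth factor receptor of lymphatic endothelium, had 0.267 and 0.660 (chr11:49634663-49635028). Fbln1, which encodes the matrix protein fibulin 1, had 0.269 and 0.740 (chr15:85231845-85232719). Rbm12b1, Snx33, Taok3 and Myo3a complete the 10, and their levels in PDGFRα+ cells lay between 0.266 (Snx33) and 0.295 (Rbm12b1).

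Among the regions higher in PDGFRα+ cells, the leading genes included a binding protein of latent TGF-beta, a cell cycle inhibitor and a homeobox factor. Ltbp4, which encodes that binding protein, had a PDGFRα+ level of 0.699 and a CD137+ level of 0.299 over 57 cytosines (chr7:27329140-27329668). Cdkn2b, an inhibitor of cyclin-dependent kinases that TGF-beta induces, had 0.746 and 0.253 (chr4:89306896-89307367). Alx4, a homeobox transcription factor gene of craniofacial and limb development, had 0.730 and 0.260 (chr2:93646503-93647124). These regions lie inside their genes, with both levels close to opposite limits of the rule. Ntf5, a neurotrophin gene, had 0.646 and 0.25 (chr7:45415635-45416013, also within 2 kb of Lhb). The region that covers the Lrrc70 promoter window lies in the span of Ipo11, an importin gene, and had 0.738 and 0.306 over 804 bases (chr13:106836039-106836842). Pygm, the muscle glycogen phosphorylase, had 0.709 and 0.293 (chr19:6389662-6389990). Kirrel3, Grap2, Fignl2 and Tafa2 complete the 10.

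The widest differences approached the cap of 0.5 that the rule sets. They belonged to Vwa8 among the lower regions (0.2503 in PDGFRα+ and 0.7494 in CD137+ cells) and to Celf2, an RNA-binding splicing regulator gene, among the higher (0.75 and 0.2501). Unc80, Disp1, Phldb2 and Zbtb8b followed among the lower regions, and Cdkn2b, Foxp2, Cd83 and Tmem273 among the higher. Disp1 encodes the protein that releases hedgehog ligands, and its levels were 0.251 and 0.743.

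A small group of 35 intermediate regions differed by less than 0.29. This boundary was placed between 2 neighbouring values after they were seen (0.2805 below it, 0.2932 above it), and wider gaps occur below it. Their median difference was 0.120, and 15 were lower and 20 higher in PDGFRα+ cells. All 9 regions with both levels from 0.4 to 0.6 were among them, as levels within those limits cannot differ by 0.29. All 20 with both from 0.35 to 0.65 were too, where the limits allow a difference barely above 0.29. The 35 regions were long and sparse, with a median length of 719 bases and 1.32 cytosines per 100 bases. The other 1076 intermediate regions had 134 bases and 6.76. Each of the 35 was at least 300 bases long with fewer than 4 cytosines per 100 bases. These 2 limits were not planned and enclose the 35 closely (shortest 327 bases, densest 3.71). That all 35 meet them is therefore no finding, and counts by these limits are description only. Outside the intermediate regions 117 autosomal regions differed by less than 0.29, and 3 of those were long and sparse in this sense. A further 58 intermediate regions were long and sparse with a difference of 0.29 or more. The median absolute area statistic per cytosine was 1.67 in the 35 and 5.80 in the 1076.

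Of the 35, 20 lay at a protein-coding gene. Slc10a7, a gene of the bile acid transporter family, had the narrowest difference of all, with 0.559 in PDGFRα+ and 0.552 in CD137+ cells over 1086 bases and 40 cytosines (chr8:78717195-78718280). Csgalnact2 and Csgalnact1, both enzymes of chondroitin sulfate synthesis, were among the narrowest, with 0.702 and 0.683 at the first and 0.635 and 0.593 at the other. Nfia, a nuclear factor I transcription factor gene, had 0.476 and 0.531 over 675 bases with 4 cytosines (chr4:97657838-97658512). These 4 regions were near-equal in the 2 libraries although the table lists them as different. How a regional level was averaged, and whether every cytosine of a region entered the call, is not given in the sources used here. Cry2, a repressor of the circadian clock, had 0.678 and 0.457 (chr2:92422356-92422974). Col18a1, whose product is a basement membrane collagen, had 0.664 and 0.45 (chr10:77153926-77154846). Nedd4, a ubiquitin ligase gene, had the longest region at a named gene, 1563 bases with 0.624 and 0.439 (chr9:72660079-72661641). In 2 regions, Smyd3 (0.580 and 0.691) and a region without a protein-coding gene (chr4:73553382-73553708, 0.559 and 0.593), the area statistic had the opposite sign to the difference.

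**Figure D2:**
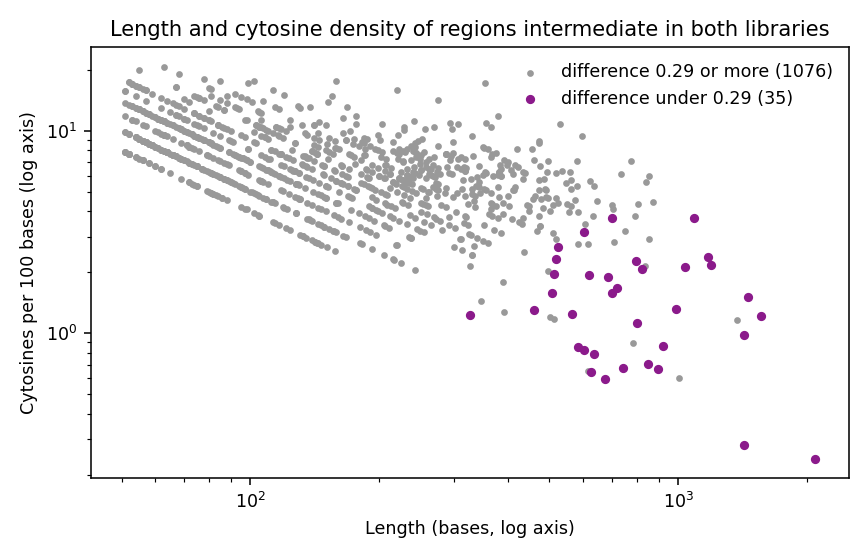
Length in bases (x, log axis) and cytosines per 100 bases (y, log axis) of the intermediate regions, with the 35 regions of difference under 0.29 in purple and the other 1076 in grey. The purple points are all at the long and sparse end, at 327 to 2084 bases.

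Intermediate regions were shorter and denser in cytosines than the rest, and most of that gap went with the size of the difference. The rule did not use length or density. Density here is of the deposited count of cytosines, which can be lower than the number in the sequence. The median density was 6.67 cytosines per 100 bases (6.41 to 6.90) in intermediate regions and 4.56 (4.53 to 4.60) in the other autosomal regions. The median length was 139 and 219 bases, with a median of 9 cytosines in both. The rule caps the difference at 0.5, and against the 10529 other regions within that cap the medians were closer: 5.95 cytosines per 100 bases and 167 bases. Density was lower where the difference was larger in both sets. From 0.29 to 0.35 it was 9.73 in intermediate and 9.26 in other regions, and from 0.45 to 0.5 it was 5.41 and 5.04. The intervals of the 2 sets overlapped in 3 of the 4 classes from 0.29 upward, and from 0.4 to 0.45 they did not (6.25 to 6.94 and 5.97 to 6.2). At least 10 cytosines per 100 bases were found in 18% of intermediate and 6.43% of other regions.

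**Figure D3:**
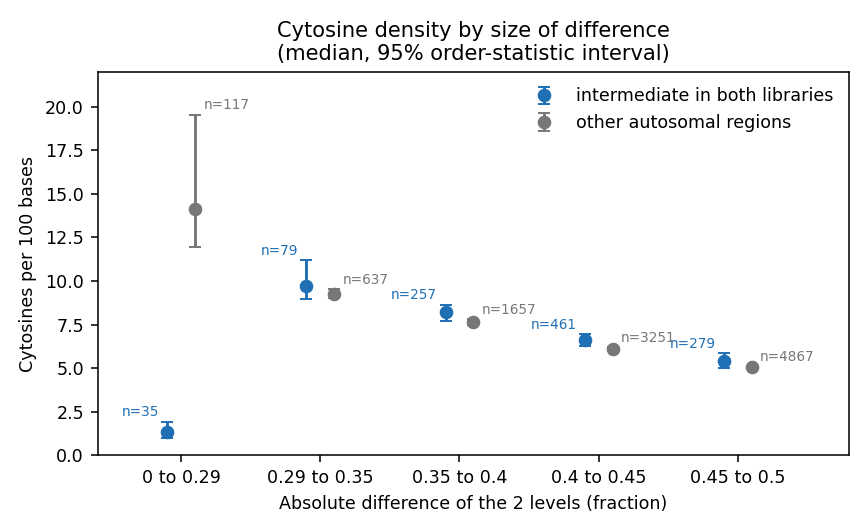
Median cytosines per 100 bases (points, with 95% order-statistic intervals and the number of regions) by class of absolute difference, for intermediate (blue) and other autosomal regions (grey). From 0.29 upward both decline together, from 9.73 to 5.41 and from 9.26 to 5.04, while under 0.29 they part, at 1.32 and 14.1.

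The densest intermediate regions at named genes were short. Psd, a guanine nucleotide exchange factor gene, had 20.6 cytosines per 100 bases over 63 bases (chr19:46316924-46316986), where the PDGFRα+ level was 0.652 and the CD137+ level 0.318. Klf2, a Krüppel-like factor that restrains adipocyte differentiation, had 17.6 over 159 bases (chr8:72320790-72320948), with 0.295 and 0.633. Igfbp7, which encodes a secreted insulin-like growth factor binding protein, had 17.3 over 52 bases (chr5:77357549-77357600), with 0.255 and 0.711. Ska1 and Dnmbp were the other 2 of the 5 densest. The lower and the higher intermediate regions had similar medians, 6.60 (6.31 to 6.85) and 6.98 (6.40 to 7.56).

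Intermediate regions lay slightly less often at protein-coding genes than the other regions did, and the 2 directions differed in where they lay. A gene span with 2 kb on each side held 570 regions (51.3%, 48.4 to 54.2%), beside 55.4% (54.9 to 56.0%) of the others. With limits of 0.30 to 0.70 the direction turned, at 57.1% of 98 regions beside 55.3%. With at least 10 cytosines the gap was -2.75 percentage points (-7.12 to 1.57). With an absolute area statistic above the median it was -1.46 (-6.04 to 3.04). For 422 (38.0%), no protein-coding gene lay within 2 kb and no other gene's span was overlapped. The share at protein-coding genes was 47.9% (44.6 to 51.2%) of the lower and 64.3% (58.0 to 70.3%) of the higher intermediate regions, and 53.3% and 62.8% of the other lower and higher regions.

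Regions higher in PDGFRα+ cells were found near gene starts more often. On the 18 autosomes with start sites in the reference tables, the region's centre lay within 2 kb of a start in 46 of 223 higher intermediate regions (20.6%, 15.8 to 26.4%) and 51 of 858 lower ones (5.94%, 4.55 to 7.73%). In other regions with a difference of 0.5 or less, the shares were 11.1% (9.90 to 12.3%) and 7.28% (6.72 to 7.89%). Near starts, 52.6% (42.7 to 62.2%) of the intermediate regions were lower, against 68.1% (66.0 to 70.1%) of all other regions, whatever their difference. Among the others with a difference of 0.5 or less, 548 near starts were lower and 286 higher. The higher regions near starts included several at developmental and hormone-related genes, named here after their values were seen. Gdnf, a neurotrophic factor gene, had 0.698 in PDGFRα+ and 0.259 in CD137+ cells. Th, the rate-limiting enzyme of catecholamine synthesis, had 0.718 and 0.287. Hpgds, a prostaglandin D synthase, had 0.739 and 0.295. Stc2, a stanniocalcin, had 0.682 and 0.296. Lower regions near starts included Aldh1a1, a retinaldehyde dehydrogenase, with 0.261 and 0.715, and Angptl1, an angiopoietin-like factor, with 0.365 and 0.7496.

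**Figure D4:**
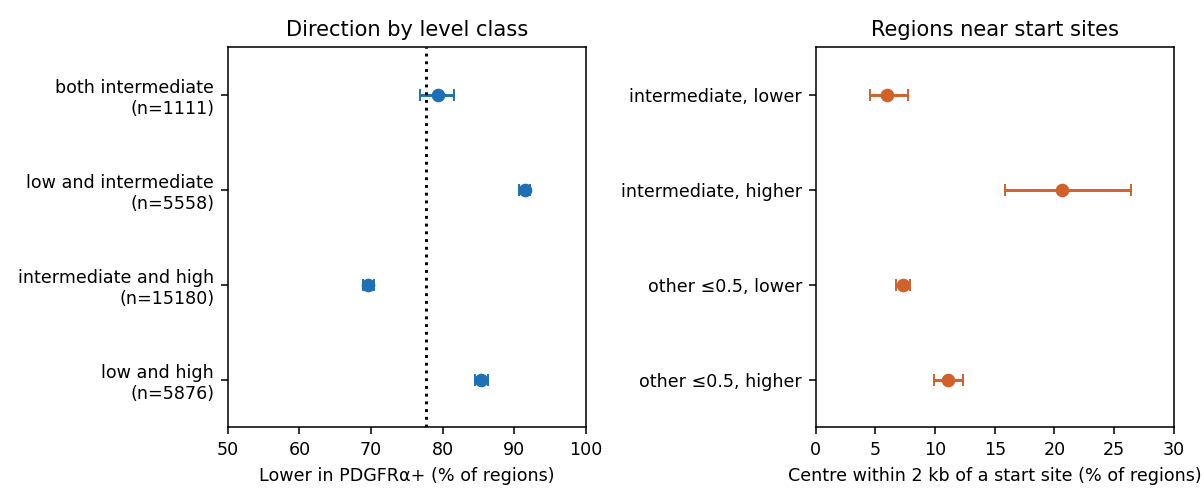
Left, share of regions lower in PDGFRα+ cells by level class, with Wilson 95% intervals and the 77.7% of all autosomal regions as a dotted line on an axis that starts at 50%; right, share of regions with their centre within 2 kb of a gene start, by direction, for intermediate regions and for other regions of difference 0.5 or less. Intermediate regions were at 79.3% on the left, and the higher ones at 20.6% on the right.

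Neighbouring regions mostly shared a direction. Another region of the table lay within 1 kb of 221 intermediate regions (19.9%, 17.7 to 22.3%) and of 11.4% (11.1 to 11.8%) of the others. The nearest neighbour had the same direction in 95.5% (91.9 to 97.5%) of these cases, beside 94.4% (93.5 to 95.2%) for the others. In 67 of the 221 the neighbour was intermediate too, beside 166 of the 3048 other regions with a neighbour within 1 kb. Within 5 kb of each other, intermediate regions formed 38 runs, of which 37 held 2 regions and kept 1 direction (26 lower, 11 higher).

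The exception was at Grap2, an adaptor of T-cell receptor signalling, where 4 of the 5 listed regions were intermediate. The first (chr15:80572100-80572635) crosses the lower end of the gene, which is the start of its span on the plus strand. It was higher in PDGFRα+ cells, with 0.7497 and 0.291. The start sites used above did not place it within 2 kb of a start. The next 3, between chr15:80577288 and chr15:80577830, were all lower, with 0.289 and 0.676, 0.285 and 0.658, and 0.282 and 0.624. The direction thus changed within 5 kb. The fifth region, far inside the gene, was higher again at 0.858 and 0.276, above the upper limit in PDGFRα+ cells.

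**Figure D5:**
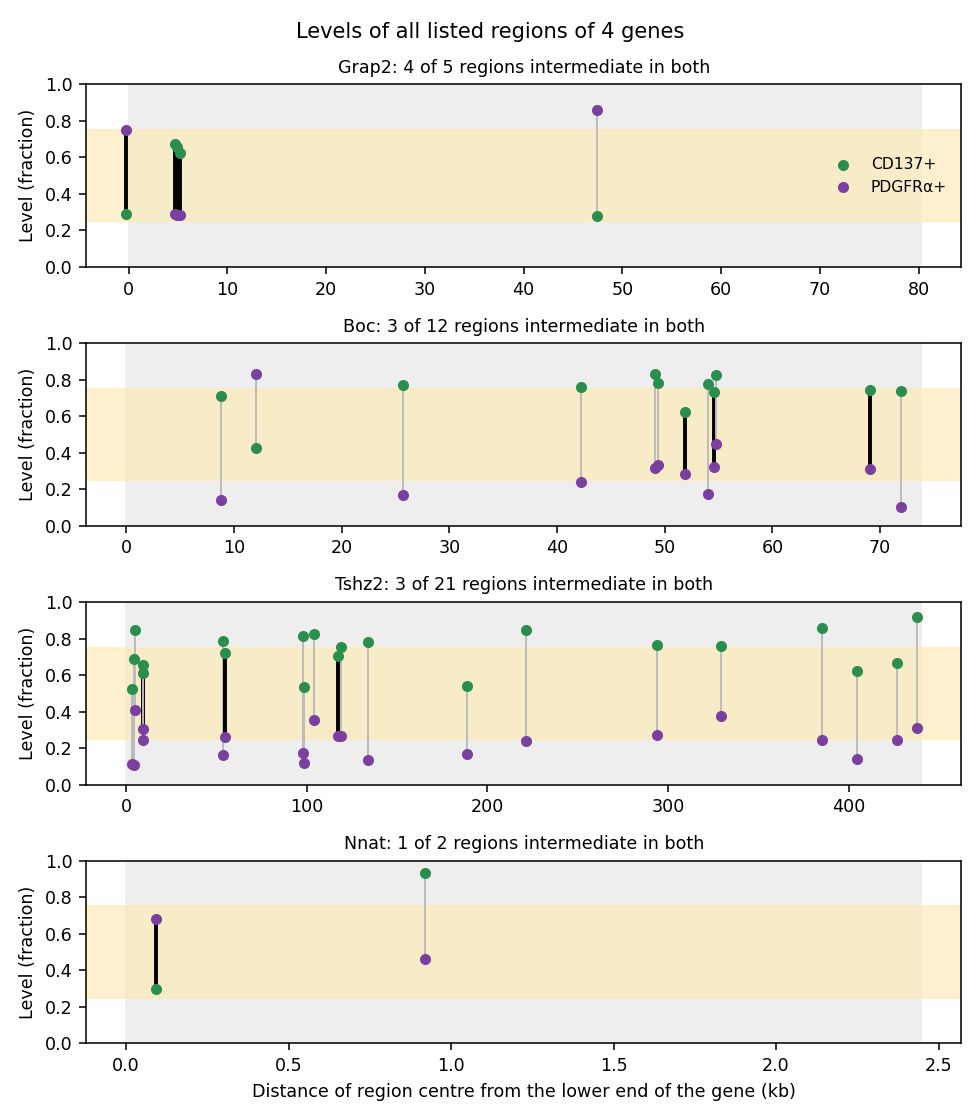
Levels (fraction) in CD137+ (green) and PDGFRα+ (purple) cells of every listed region of Grap2, Boc, Tshz2 and Nnat, by distance in kb of the region's centre from the lower end of the gene (grey span), with black bars for regions intermediate in both and the yellow band for 0.25 to 0.75. At Grap2 the first region is higher in PDGFRα+ and the next 3 are lower, and at Nnat the 2 regions go opposite ways.

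An intermediate region was found at 529 of 20665 autosomal protein-coding genes (2.56%), where 30.6% had any region, so that 8.35% of the genes with any region had an intermediate one. All intermediate regions were lower in PDGFRα+ cells at 378 of these genes, all were higher at 142, and 9 had both. Most genes (473) had 1. Genes with an intermediate region were long, with a median span of 114 kb beside 52.2 kb for genes with any region. They also had more listed regions, a median of 3 beside 1, and so more chances to hold an intermediate one. Whether span matters beyond that was not tested. Besides Grap2, 3 genes had 3. Tshz2, a zinc finger homeobox gene, had 3 of 21, all lower, at 0.305 and 0.655, 0.259 and 0.721, and 0.265 and 0.705. Boc, a hedgehog co-receptor gene, had 3 of 12, all lower, at 0.285 and 0.621, 0.324 and 0.735, and 0.313 and 0.743. Dlc1, a tumour suppressor gene, had 3 of 24, of which 1 was higher (0.707 and 0.286). No other region was listed at 122 genes, and 5 of these had 2 intermediate regions: Thbd, Erich3 and Zfp341, all lower, and Ube2u and Khk, all higher. Thbd, the endothelial anticoagulant receptor thrombomodulin, had 0.298 and 0.747 and then 0.252 and 0.737.

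Regulators of adipocyte differentiation held 9 intermediate regions of 146 (6.16%, beside 4.0% of all autosomal regions). Of the 9, 8 were lower, where 77.7% of all autosomal regions were lower. Lower regions stood at Klf2, Klf3, Nfix, Zfp423, Nfia (2) and Nfib (2), and the higher one at Stat5b. The first Nfia region is the near-equal one given above (0.476 and 0.531, 4 cytosines). Zfp423, a determination factor of preadipocytes, had 0.315 and 0.670 (chr8:87716494-87716560). The second Nfia region had 0.287 and 0.734 over 26 cytosines (chr4:97836872-97837127). At Nfib both regions were lower, with 0.284 and 0.684, and 0.267 and 0.658. Stat5b, a signal transducer of growth hormone and cytokine receptors, had 0.724 and 0.384 (chr11:100822366-100822537). This region lies inside the gene (chr11:100780731-100859004), away from both ends. Of its bases, 17 reach a promoter window within the span, with no whole CG site. The list was chosen with earlier results of these data known, and no test was made of its count.

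Signalling genes of the TGF-beta, BMP and Wnt pathways held 5 intermediate regions of 107 (4.67%), all lower. That share is near the 4.0% of all autosomal regions, of which 77.7% were lower. Smad6, an inhibitory Smad of BMP signalling, had 0.277 and 0.747 (chr9:63980133-63980461). Smad3, the receptor-activated Smad of TGF-beta, had 0.393 and 0.715. Lrp6, the Wnt co-receptor, had 0.304 and 0.747 in the region printed above. Axin2, a Wnt target and inhibitor, had 0.255 and 0.703, and Acvr1, a BMP receptor gene, had 0.276 and 0.661. Hippo pathway genes held 3 of 74 (4.05%). The TEAD cofactors Vgll4 (0.286 and 0.710) and Wwtr1 (0.268 and 0.688) were lower, and the upstream regulator Wwc2 (0.726 and 0.285) was higher. None of the 8 regions at Tead1, a TEAD factor named in the series title, was intermediate in both libraries.

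Transcription factors that pattern mesenchyme held 4 intermediate regions of 93 (4.30%), of which 3 were higher, and Hox genes held 1 of 42 (2.38%), beside 4.0% of all autosomal regions. Osr2, an odd-skipped related factor of limb and craniofacial development, had 2 neighbouring regions at 0.729 and 0.277 and at 0.692 and 0.258 (chr15:35303192-35303486). Tbx18, a T-box factor, had 0.667 and 0.333 close to its start, and Hoxd9, the sole Hox gene with an intermediate region, had 0.7498 and 0.277. All listed regions of Osr2 (3), Tbx18 (5) and Hoxd9 (2) were higher in PDGFRα+ cells.

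Imprinted genes, whose parental alleles differ in methylation at control regions, held 2 intermediate regions of 64 (3.13%, beside 4.0% of all autosomal regions). Both were higher, whereas the median difference over the list's 64 regions was -0.49. The first lies at the start of Nnat, which is expressed from the paternal allele, inside the span of Blcap (chr2:157560092-157560249, 0.679 and 0.296). Nnat's other region had the opposite direction, at 0.460 and 0.934. The other imprinted gene was Zdbf2 (chr1:63261428-63261524, 0.699 and 0.357). Neither region had near-equal levels in the 2 libraries. Zim2, in the imprinted Peg3 domain, was not on the list and had an intermediate region before its start (0.257 and 0.733), named after its values were seen.

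The counts of the other lists are read beside the 4.0% of all autosomal regions, and lists of few regions could hold none at that share. Extracellular matrix genes had 4 of 105 (3.81%, Col4a1, Col6a3 and Tnxb lower, Col18a1 higher), insulin and lipid signalling genes 3 of 109 (2.75%, 2 lower, among them Pde4d, and Tbc1d4 higher), and glucocorticoid response genes 1 of 55 (1.82%, Ncoa3, a nuclear receptor coactivator gene, higher at 0.743 and 0.283). Circadian clock genes had 2 of 35, at Cry2 and at Rora, a nuclear receptor gene (0.417 and 0.727). Of markers of other cells that a sort could hold, endothelial markers had 1 of 48 regions, at Flt4. It was lower in PDGFRα+ cells, whereas the median difference over the 48 was 0.42, in the higher direction. Mesothelial markers had 2 of 22, at Rspo1 (0.441 and 0.744) and Upk1b (0.3003 and 0.686), both lower. There was none among the 45 regions of immune markers, the 22 of mural and smooth-muscle markers or the 21 of progenitor surface markers. The lists of thermogenic genes, mature adipocyte products, DNA methylation machinery and ribosomal protein genes, with 47, 15, 7 and 1 regions, also had none. The sorting markers gave no intermediate region, since the 1 region of Pdgfra was outside the limits and Tnfrsf9 had no region in the table. Methylation levels do not measure expression, so the identity of the sorted cells could not be checked.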

How the data were processed

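Whole-genome bisulfite sequencing had been done on 2 libraries, 1 per group, assigned by their titles. The authors deposited 1 table of differentially methylated regions. Per the file headers it gives for each region a methylation level, deposited as a fraction for each library, their difference and an area statistic, both deposited as a score, and the length and number of cytosines, deposited as whole numbers. Coordinates are on mm10 (per the submitters' processing notes). What aligned the reads, called the regions and set the thresholds and coverage minimum is not given in the sources used here, so depth is unknown. As only regions called different are listed, every share describes those regions.

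Deposited starts count from 0: in promoter windows, the base after the deposited start was a CG cytosine in 249 of 249 regions, and starts are printed with 1 added. The number of cytosines counted CG cytosines of both strands, as it was at most their number in all 88 regions wholly inside a window and above the number of CG sites in 83. It equalled their number in 43 of the 88, and the counts summed to 80.6% of the CG cytosines there. Density is the deposited cytosines per 100 bases, so it can fall short of what the sequence holds.

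Regions were assigned to every protein-coding RefSeq gene (GRCm38.p6) whose span with 2 kb on each side they overlap. Genes of other kinds were counted by their span alone. Promoter windows and start sites covered 18 autosomes, and those of the remaining autosome were not analysed here. Shares have Wilson and medians exact order-statistic 95% intervals. With 1 library per group no test was made. The region rule and the 19 gene lists (532 of 533 symbols matched) were chosen with earlier results of these data known. Named genes were, in each direction, the 10 with the largest absolute statistic and the 5 widest and 5 narrowest differences, then the 5 densest, sparsest and longest regions and those with most cytosines, the genes with most members, up to 4 genes per list, Tead1, Pdgfra and Tnfrsf9; others were named after their values were seen, and not every item selected is reported here. Overlap and interval code was tested on simulated data. Alternatives covered the limits of the levels, minimums of cytosines and statistic, the flank, and the regions compared with. Values were computed with scipy 1.17.1, pandas 2.3.3 and numpy 2.4.6 in Python 3.11.15, and plots drawn with matplotlib 3.10.9.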

Additional observations from a re-analysis of the deposited data

Results flagged for a closer look

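The sex chromosomes lay outside the rule, and 4 of the 365 regions on chromosome X (1.10%, Wilson interval 0.427 to 2.78%) were intermediate in both libraries, beside 4.0% of autosomal regions. This is a signal in data the report does not use. Msn, which encodes the membrane linker moesin, was higher in PDGFRα+ cells (0.672, against 0.308 in CD137+ cells). Tceal8 (0.251 and 0.720), Rnf128, a ubiquitin ligase gene (0.298 and 0.679), and a region without a protein-coding gene (chrX:62244228-62244296, 0.305 and 0.723) were lower. Chromosome Y had 0 of 2. The sex of the animals is not given in the labels, and the difference between X and autosomes was not tested.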

How the results depend on the processing

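No paired analysis was possible because each group has 1 library. Of 73 alternatives, 49 left the value within its interval or, for counts, close to the one reported, 23 moved a value and 1 turned a direction. With 0.20 to 0.80 there were 4973 regions and 1903 genes, 82.4% lower, with a median difference of 0.471, and against other regions 0.928 more cytosines per 100 bases, 29 fewer bases (-29) and 1 more cytosine. With 0.30 to 0.70 there were 98 regions and 56 genes, 60.2% lower, with a median difference of 0.342, a density difference of 2.83 and a length difference of -111.5 bases. There the share at protein-coding genes was 1.87 percentage points above that of other regions, where the report has -4.14. A minimum of 10 cytosines left 502 regions and 275 genes, a density difference of 1.77 and 1 more cytosine. An absolute statistic above the median left 459 regions and 256 genes, a median difference of 0.428 and 2 more cytosines. Against other regions of difference 0.5 or less, the density difference was 0.714 in place of 2.10 and the length difference -28 in place of -80 bases. Leaving out the regions of difference under 0.29, an alternative chosen after seeing the data, changed none of the values it was run on beyond their intervals. Depth is unknown, so the error of a single level, above all in regions with 4 cytosines, cannot be given.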

Other observations

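By chromosome, the share of listed regions that were intermediate in both libraries ran from 2.05% (22 of 1075, interval 1.36 to 3.08%) on chromosome 17 to 4.94% (79 of 1600, 3.98 to 6.11%) on chromosome 8. The share of intermediate regions that were lower in PDGFRα+ cells ran from 67.2% on chromosome 13 to 90.9% on chromosome 16.

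A single microRNA hairpin, Mir7680 (chr16:21256013-21256066), had an intermediate region within 2 kb. The region (chr16:21255945-21256045) overlaps the hairpin, and its PDGFRα+ level was 0.265 and its CD137+ level 0.723. It was 1 of 1111 intermediate regions (0.0900%, 0.0159 to 0.508%). Of the 26663 other autosomal regions, 65 (0.244%, 0.191 to 0.311%) lay within 2 kb of a hairpin, and the intervals overlap.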
